A study of Mus musculus with 8 samples.

Results

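The cation-chloride cotransporters are membrane proteins that carry chloride together with sodium or potassium ions. Described here are the 5 genes Slc12a2, Slc12a4, Slc12a5, Slc12a7 and Slc12a9, listed by gene symbol, out of 55450 genes in the deposited tables. The choice was made with earlier results of these data known. The 5 genes all passed the filter on low counts. They were read in nuclear RNA from the neocortex of juvenile mice, after a cell sorter had picked out the fluorescent nuclei, with 1 cortex to a library. The 2 groups are control mice (Thra+/+) and mice that carry a dominant-negative mutation of the thyroid hormone receptor gene Thra (Thra+/AMI, called mutants below). In both groups, Cre in GABAergic (inhibitory) neurons switched on a nuclear fluorescent protein, and in mutants it also switched on the mutant Thra allele. The labels name neither the Cre line nor the age in days, and say nothing of the animals' sex. Of 4 mutant tables, that of mutant 10 repeated the counts of mutant 7 in every gene that could be compared (55220 genes, 0 differing). Which animal gave these counts is not known, and they are called mutant 7 below. The pair was counted as 1 sample, so all comparisons are between 4 controls and 3 mutants.

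In neurons the chloride gradient decides whether GABA, the main inhibitory transmitter, hyperpolarizes or depolarizes a cell. NKCC1, the product of Slc12a2, brings chloride in on the sodium gradient, and KCC2, the neuronal product of Slc12a5, moves chloride out with potassium. As cortical neurons mature after birth, KCC2 is known to rise relative to NKCC1, and thyroid hormone is known to act during the same period. KCC1 (Slc12a4) and KCC4 (Slc12a7) are potassium-chloride cotransporters of many cell types and serve in cell volume control, while Slc12a9 encodes a more distant relative whose transported ions are not settled.

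Sequences before the start sites are shown for Slc12a4, which moved between the groups, and for Slc12a5, which has a pair of annotated starts that counts per gene cannot tell apart. They are from RefSeq (GRCm38.p6), on the strand of the gene, 5′ to 3′, and stop before the first annotated exon base. RefSeq windows were found for 4 of the 5 genes. Capitals mark CACGTG, the E-box that the factors USF1 and USF2 bind.

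Slc12a4, chr8:105966116-105966365, minus strand: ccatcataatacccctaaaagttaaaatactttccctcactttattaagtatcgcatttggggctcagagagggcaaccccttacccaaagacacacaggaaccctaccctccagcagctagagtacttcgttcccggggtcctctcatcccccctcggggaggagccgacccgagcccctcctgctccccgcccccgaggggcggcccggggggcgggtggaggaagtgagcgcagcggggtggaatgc
Slc12a5 upstream start, chr2:164960596-164960801, plus strand: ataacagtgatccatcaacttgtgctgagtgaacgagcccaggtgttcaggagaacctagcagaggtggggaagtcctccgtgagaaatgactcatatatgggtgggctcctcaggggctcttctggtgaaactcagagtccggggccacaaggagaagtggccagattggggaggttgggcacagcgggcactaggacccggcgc
Slc12a5 downstream start, chr2:164967738-164967982, plus strand: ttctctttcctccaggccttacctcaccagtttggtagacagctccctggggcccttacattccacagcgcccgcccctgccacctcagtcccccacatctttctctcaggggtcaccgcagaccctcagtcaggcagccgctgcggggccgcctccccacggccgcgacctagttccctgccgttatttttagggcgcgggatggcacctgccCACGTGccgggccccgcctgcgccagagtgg

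The letters searched, on both strands of the 250 bases before each start, were AGGTCA (the half-site that thyroid hormone receptors bind), AGGTCA repeated in the same direction after any 4 bases, CACGTG and GCGTGGGCG (a site for EGR factors). Among 32851 such windows of mouse genes, 14.0% held AGGTCA, 0.0152% the repeat, 6.02% CACGTG and 0.536% GCGTGGGCG. Of the 6 windows of these genes, 3 held CACGTG: the downstream start of Slc12a5 and windows of Slc12a7 and Slc12a9. AGGTCA was found in 1 window, that of the second Slc12a7 start, where it overlaps CACGTG. The 30 bases around each match are given with the letters found in capitals.

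Slc12a5 downstream start: atggcacctgccCACGTGccgggccccgcc
Slc12a7 second start: ggcaggtgAGGTCACGTGgcgggcaagggc
Slc12a9: acacccgagacgCACGTGgaacggtttggc

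No searched letters were found before Slc12a4 or the upstream start of Slc12a5. A match of letters describes the sequence, and neither a match nor its absence shows binding.

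Total counts per library were 10747169 to 13804734, so that 1 CPM (a count divided by the TMM-scaled library size and put on the usual CPM scale) rests on about 10.9 to 13.2 reads. Thra, the mutated gene, was at 105.5 to 125.5 CPM in controls and 77.6 to 96.3 CPM in mutants, which is -0.39 on the log2 scale (SE 0.11) with an adjusted p of 0.0543 in edgeR, both alleles summed. It passed in 5 of 9 alternatives other than leaving out 1 library (adjusted p 0.000755 to 0.0626) and in 2 of 7 fits without 1 library, those without control 1 or control 4 (adjusted p 0.0149 to 0.239 over the 7). General GABAergic markers were high in all 7 libraries, with a summed level of 2494 to 2763 CPM in controls and 2418 to 2876 CPM in mutants. Dlx1 is listed at 0, as are all 1351 protein-coding genes whose span lies wholly inside other genes. Of those, 684 share no exon base with another gene, whereas 24.7% of the 11728 protein-coding genes without an overlap were at 0. Values of overlapped genes are therefore limited to their unshared stretches, and counts behaved as reads over the whole gene, introns included. Across the 16448 tested genes, which are not independent replicates, control 1 had relatively fewer reads in long genes than control 4 (Spearman's rho of their log2 ratio with genomic length -0.60, and 0.181 for control 2 over control 3). Control 4 and mutant 8 lack reads of Y-linked genes.

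The groups were compared to see whether the mutant receptor in GABAergic neurons goes with a change in genes that set neuronal chloride. Slc12a4 (KCC1) fell to 26.6% of its control level (95% interval 16.0% to 44.4%), and it was the single gene of the 5 that passed the test. Slc12a5 (KCC2) stood at 82.3% of control (69.6% to 97.2%) and Slc12a2 (NKCC1) at 87.6% (74.8% to 102%), and neither passed over all tested genes. Slc12a9 and Slc12a7 were at 99.4% (79.5% to 124%) and 110% (59.3% to 204%). Thus 1 of 5 genes was called, beside 9.42% of 16448 tested genes (4.78% called lower, 4.63% called higher), and a count of 1 gene cannot be read as a property of the family. The groups did not overlap for 3 of the 5 genes, beside 22.0% of all tested genes. At an unadjusted p under 0.05 stood 2 of the 5, Slc12a4 and Slc12a5, beside 22.5% of all tested genes. The median log2 fold change of the 5 genes was -0.19 and that of all tested genes -0.01. The replicates are separate cortices, and in bulk nuclei fewer cells that express a gene and less RNA per cell cannot be told apart.

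**Figure D1:**
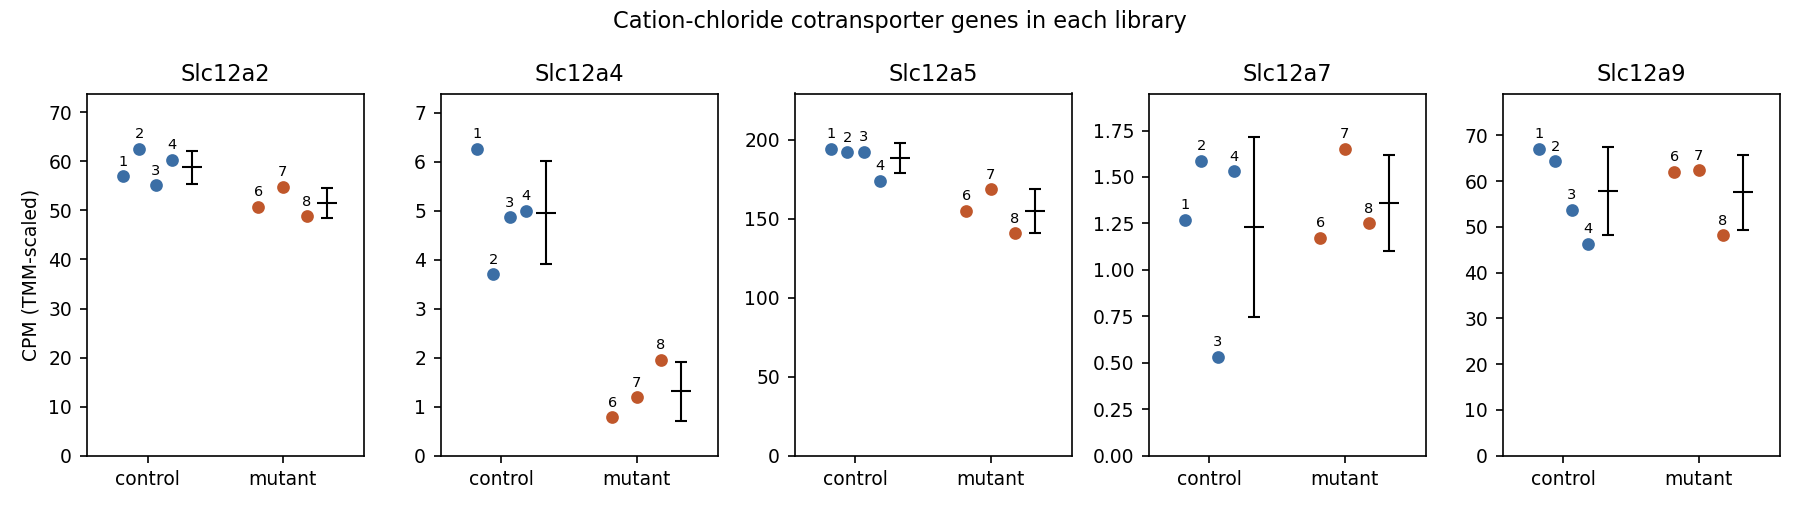
Level of each cotransporter gene (y axis, TMM-scaled CPM, linear from 0, with its own scale for each gene) in 4 control and 3 mutant libraries. Points are libraries with their numbers, and bars to the right are the mean and SD. Slc12a4 lies at 3.70 to 6.27 CPM in controls and 0.782 to 1.96 CPM in mutants, while Slc12a9 and Slc12a7 overlap.

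Slc12a2 (ENSMUSG00000024597.11, GRCm38 chromosome 18, 57878678 to 57946821, plus strand) encodes the chloride importer NKCC1. It was at 57.0, 62.6, 55.2 and 60.3 CPM in controls 1 to 4 and at 50.8, 54.8 and 48.9 CPM in mutants 6, 7 and 8. Each mutant was below each control, by a margin of less than 1 CPM between mutant 7 and control 3. The group means were 58.8 ± 3.30 CPM (SD, n = 4) and 51.5 ± 3.03 CPM (SD, n = 3), resting on 597 to 828 reads per library. The fitted log2 fold change was -0.19 (SE 0.10), with an unadjusted p of 0.091 and an adjusted p of 0.314 in edgeR. Its 95% interval ran from -0.42 to 0.04, which leaves room for no change as well as for a fall to about 74.8% of control. In none of the 7 fits without 1 library did it pass (adjusted p 0.267 to 0.617).

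Slc12a5 (ENSMUSG00000017740.17, chromosome 2, 164960802 to 164999731, plus strand) encodes KCC2, the chloride exporter of mature neurons. It was at 194.2, 191.9, 192.4 and 173.9 CPM in controls 1 to 4. The mutants stood at 155.1, 168.6 and 140.6 CPM, in the order 6, 7 and 8. All mutants were below all controls, and control 4 was nearer to mutant 7 than to any other control. The means were 188.1 ± 9.53 CPM in controls and 154.8 ± 14.0 CPM in mutants, from 1798 to 2540 reads per library. The log2 fold change was -0.28 (SE 0.11), with a 95% interval from -0.52 to -0.04, an unadjusted p of 0.0257 and an edgeR adjusted p of 0.148, so the gene was not called. This verdict depended on the processing. Slc12a5 was called lower with limma-voom and sample quality weights (-0.32, adjusted p 0.0218), with an offset for genomic length (-0.31, adjusted p 0.0455) and without controls 1 and 4 (-0.31, adjusted p 0.0208, chosen after seeing the data). Over all alternatives that kept the libraries or left out that pair, adjusted p ran from 0.0208 to 0.261. Without any 1 library it was not called (adjusted p 0.056 to 0.469), and the log2 fold change ran from -0.34 to -0.21. The gene shares no base with another annotated gene.

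Because KCC2 and NKCC1 oppose each other, their ratio was taken within each library, where it does not depend on library scaling. The genes differ in genomic span, with 38930 bases for Slc12a5 and 68144 for Slc12a2. How far the trend with gene length between libraries moves the ratio was not tested. Per kb of merged exons, Slc12a5 exceeded Slc12a2 by 4.99, 4.50, 5.11 and 4.23 times in controls 1 to 4 and by 4.48, 4.51 and 4.22 times in mutants 6, 7 and 8. The groups overlapped: control 4 lay beside mutant 8, and control 2 lay between mutants 6 and 7. The mean ratio was 4.71 ± 0.416 in controls and 4.40 ± 0.161 in mutants, a difference smaller than the SD of the controls. Per kb of genomic span the ratio was 5.62 ± 0.497 and 5.26 ± 0.192. The ratio is given as a description, with no test.

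**Figure D2:**
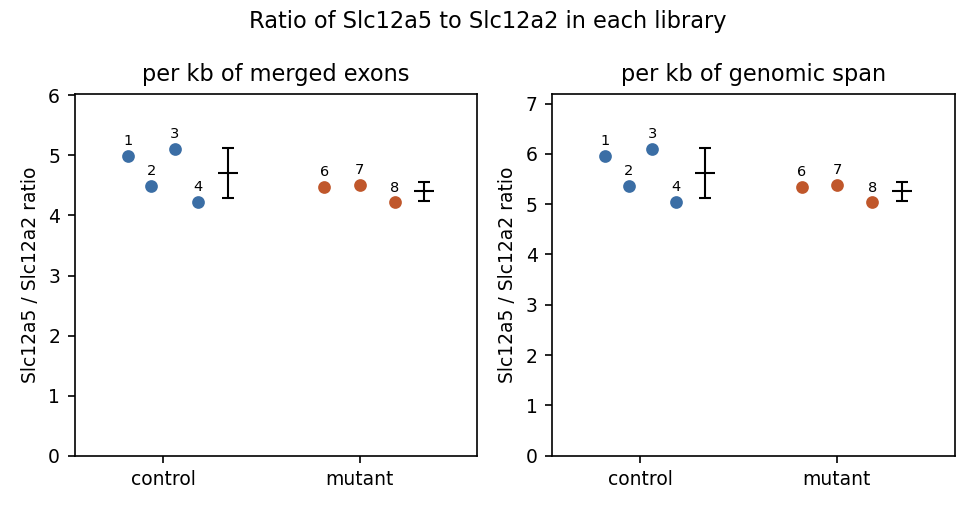
Ratio of Slc12a5 to Slc12a2 in each library (y axis, linear from 0), with levels taken per kb of merged exons (left) or per kb of genomic span (right). Points are libraries with their numbers, and bars are the mean and SD. The 3 mutants lie at 4.22 to 4.51 per kb of exons, within or just below the control range of 4.23 to 5.11.

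Slc12a4 (ENSMUSG00000017765.17, chromosome 8, 105943590 to 105966097, minus strand) encodes KCC1, the broadly expressed potassium-chloride cotransporter used in volume control. It was at 6.27, 3.70, 4.87 and 5.001 CPM in controls 1 to 4, from 79, 49, 64 and 62 reads. In mutants 6, 7 and 8 it was at 0.782, 1.19 and 1.96 CPM, from 10, 13 and 25 reads. The highest mutant, mutant 8, had less than the lowest control, control 2. The means were 4.96 ± 1.05 CPM in controls and 1.31 ± 0.595 CPM in mutants. The log2 fold change was -1.91 (SE 0.34), or 3.75-fold lower, with an edgeR adjusted p of 0.00397. In absolute size this exceeded the change of 99.1% of tested genes, while the gene's mean level exceeded that of 22.9% of them. It was called lower in each of the 8 alternatives that gave a value (log2 fold change -1.98 to -1.70) and in each of the 7 fits without 1 library (-2.32 to -1.64, adjusted p 0.00171 to 0.0307). The filter at a mean of 5 CPM removed it.

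Slc12a4 shares 10.3% of its span with other annotated genes, among them the antisense gene Gm16156, and 89.7% is its own. Gm16156 was at 5.68 ± 0.572 CPM in controls and 6.28 ± 0.642 CPM in mutants (log2 fold change 0.14, SE 0.20, edgeR adjusted p 0.742), so it did not pass the test and its fitted value lay in the other direction.

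KCC1 is found in many cell types, so markers of other cells in the sort are given beside Slc12a4. Endothelial markers were below 0 in log2 fold change for 8 of 8 tested genes, with 0 called, and summed to 57.3 to 132.4 CPM in controls and 56.4 to 87.7 CPM in mutants. Mural markers were below 0 for 5 of 6 genes, with 0 called, at 36.4 to 99.9 and 35.3 to 56.6 CPM. Both sums overlapped between the groups. Astrocyte markers were below 0 for 5 of 7 tested genes and summed to 147.5 to 268.7 and 163.1 to 194.1 CPM, with Gfap listed at 0 and Sox9 called higher. Oligodendrocyte markers were below 0 for 2 of 8 genes and summed to 164.8 to 202.8 and 183.0 to 218.7 CPM, with Mog called higher. Those of oligodendrocyte precursors (1 of 5 below 0) summed to 16.8 to 23.6 and 16.9 to 22.3 CPM, with Gpr17 listed at 0. Microglial markers (2 of 7 below 0) summed to 68.6 to 85.9 and 84.2 to 90.2 CPM, with P2ry12 listed at 0. Glutamatergic markers (4 of 8 below 0) summed to 241.4 to 343.0 and 220.1 to 276.4 CPM. Choroid plexus markers, with 2 of 6 genes tested, summed to 1.37 to 2.49 and 2.74 to 5.14 CPM, without overlap and higher in mutants. Clic6 was called higher, at means of 0.66 and 2.40 CPM from 5 to 40 reads per library. Kl was not called (log2 fold change 0.15, edgeR adjusted p 0.893). Ttr and Folr1, not tested, had at most 5 and 1 reads per library. Kcnj13 and Otx2 are listed at 0, and Otx2 shares 31.7% of its span with other genes. Gfap, Gpr17, P2ry12 and Kcnj13 share 100% of their span with other genes. All such protein-coding genes are at 0 here, so these zeros say nothing about the cell types. The part of these cells in the fall of Slc12a4 was not tested.

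**Figure D3:**
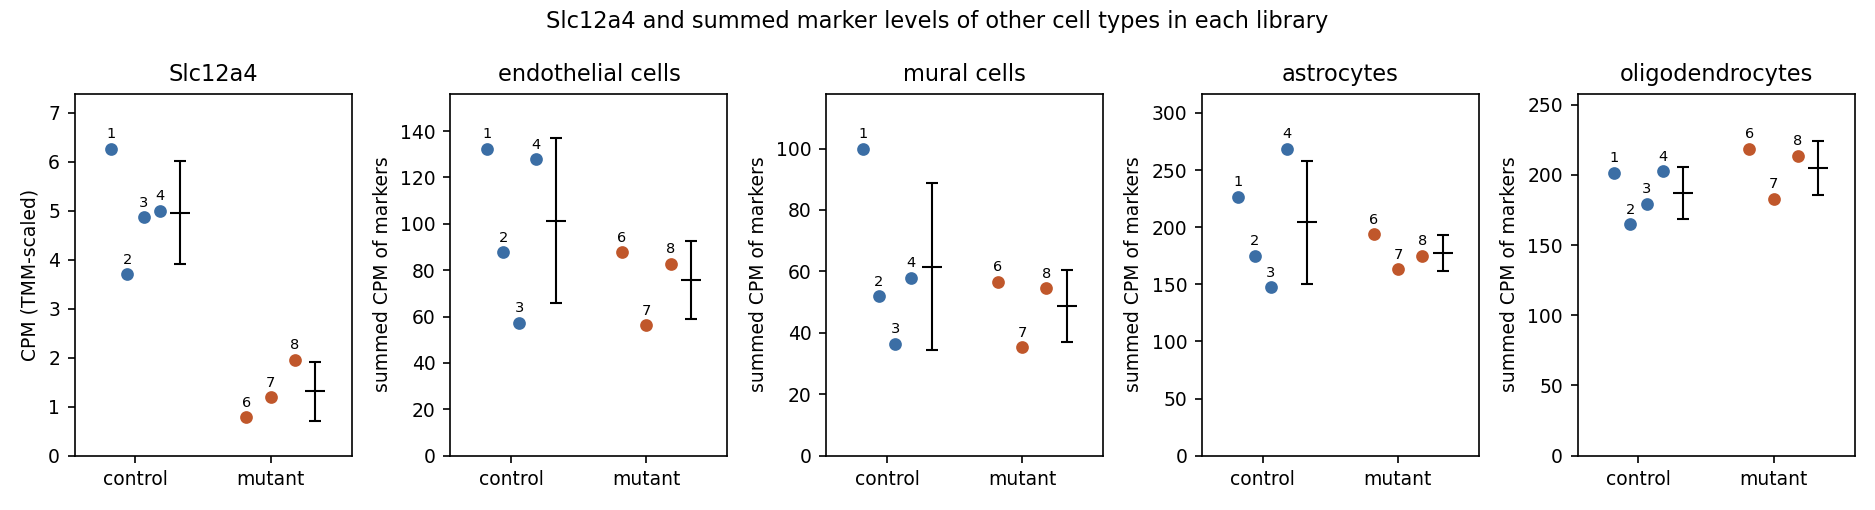
Slc12a4 (left, TMM-scaled CPM) beside the summed CPM of marker genes of endothelial cells, mural cells, astrocytes and oligodendrocytes, each on a linear axis from 0. Points are libraries with their numbers, and bars are the mean and SD. Slc12a4 separates the 4 controls from the 3 mutants, and each of the 4 marker sums overlaps between the groups.

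Slc12a7 (ENSMUSG00000017756.9, chromosome 13, 73733094 to 73816754, plus strand) encodes KCC4, a potassium-chloride cotransporter known best from kidney and inner ear. It was low in all libraries, at 1.27, 1.59, 0.533 and 1.53 CPM in controls 1 to 4 and 1.17, 1.65 and 1.25 CPM in mutants 6, 7 and 8. These values come from 7 to 21 reads per library, and the groups overlapped throughout. The log2 fold change was 0.14 (SE 0.41, edgeR adjusted p 0.895). Its 95% interval ran from -0.75 to 1.03.

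Slc12a9 (ENSMUSG00000037344.14, chromosome 5, 137314558 to 137333597, minus strand) is the distant member of the family. Controls 1 to 4 had 67.1, 64.4, 53.7 and 46.3 CPM, and mutants 6, 7 and 8 had 62.1, 62.4 and 48.2 CPM. The spread within each group exceeded the difference between the groups. The means were 57.9 ± 9.64 CPM and 57.6 ± 8.14 CPM, from 574 to 852 reads. The log2 fold change was -0.01 (SE 0.15, edgeR adjusted p 0.985), with a 95% interval from -0.33 to 0.31. The lowest library of each group in Slc12a9 was also the lowest of its group in Slc12a5, control 4 among controls and mutant 8 among mutants, and these are the libraries without Y-linked reads. With a term for those libraries the log2 fold change of Slc12a9 was 0.03 and that of Slc12a5 -0.27 (edgeR adjusted p 0.927 and 0.131). With 1 such library in each group, a sex difference and a difference between individual animals cannot be told apart.

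Levels of the 5 genes were then set against each other per length. Slc12a5 ranked highest in every library, followed by Slc12a9, Slc12a2, Slc12a4 and Slc12a7, and this order was the same in all 7 libraries and with each of 3 lengths. Per kb of merged exons, Slc12a5 was at 25.3 ± 1.28 CPM in controls and 20.8 ± 1.88 CPM in mutants. Slc12a9 was at 11.5 ± 1.92 and 11.5 ± 1.62 CPM per kb. Slc12a2 was at 5.38 ± 0.302 and 4.72 ± 0.277 CPM per kb. Slc12a4 was at 1.16 ± 0.245 and 0.306 ± 0.139 CPM per kb, and Slc12a7 at 0.0971 ± 0.0383 and 0.107 ± 0.0203 CPM per kb. No neighbours in this order overlapped over the libraries on this scale. Slc12a5 made up 58.2% ± 1.91 of the sum of the 5 genes in controls and 55.6% ± 0.892 in mutants. Per kb of genomic span, the scale nearer to how reads behaved here, the control means were 4.83, 3.04, 0.863, 0.220 and 0.0147 CPM in the same order.

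**Figure D4:**
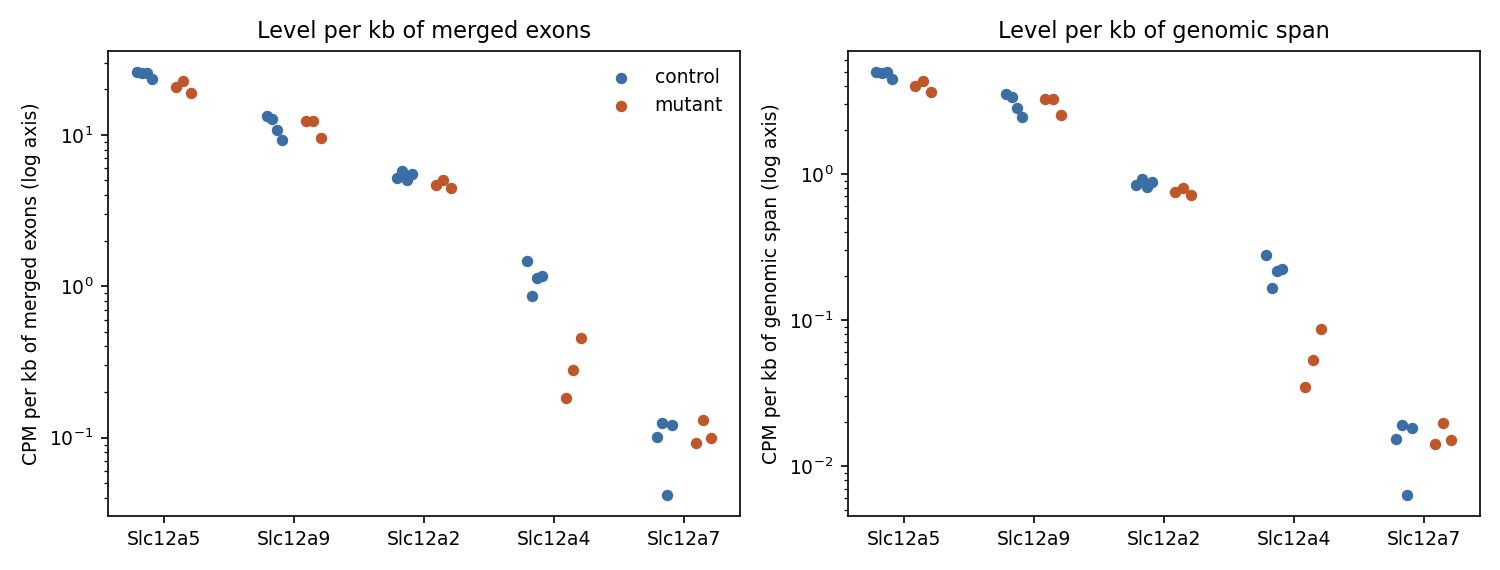
Level of each gene per kb of merged exons (left) and per kb of genomic span (right), in TMM-scaled CPM on log axes, with 1 point per library (blue controls, orange mutants). The order from Slc12a5 down to Slc12a7 is the same in all 7 libraries on both scales, and the gap between groups is widest for Slc12a4.

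The rest of the machinery of neuronal chloride was described through 7 lists, chosen with earlier results of these data known. They hold 64 genes, of which 60 were tested. Of these, 8 (13.3%) were called, 5 lower and 3 higher, beside 9.42% of all tested genes, and their median log2 fold change was -0.01. The calls fell in 3 lists: the WNK kinase pathway, bicarbonate transporters with carbonic anhydrases, and sodium pump subunits. Of the other family members 0 of 4 were called, among them Slc12a1 (log2 fold change 0.47, adjusted p 0.403) and Slc12a8 (-0.24, adjusted p 0.704), all with 10 to 78 reads per library.

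WNK kinases act through SPAK (Stk39) and OSR1 (Oxsr1) to switch NKCC1 on and KCCs off by phosphorylation. Of 10 tested genes of this pathway, 1 was called, beside 9.42% of all tested genes. Wnk4 (chromosome 11, 101260567 to 101277409) fell from 15.7, 8.54, 8.37 and 13.9 CPM in controls 1 to 4 to 3.91, 2.94 and 4.07 CPM in mutants 6, 7 and 8. The control values spread nearly as widely as the distance between the groups, but the groups did not overlap (log2 fold change -1.67, SE 0.28, edgeR adjusted p 0.00262). Wnk4 shares 9.15% of its span with an antisense gene, so that stretch is not counted. It stayed called without any 1 library (-1.79 to -1.48, adjusted p up to 0.0255). The other tested kinases were not called. Wnk2 had a log2 fold change of -0.05, Wnk1 -0.12, Stk39 -0.18 and Wnk3 0.29, with edgeR adjusted p-values of 0.26 to 0.904. Oxsr1 is listed at 0 and shares its whole span with other genes.

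Partners and regulators of KCC2 gave 0 calls among 13 tested genes, beside 9.42% of all tested genes. Their median log2 fold change was -0.01. Among them were Egr4 (0.52, adjusted p 0.16), a factor known to drive Slc12a5, Ckb (-0.43, adjusted p 0.107), a creatine kinase that binds KCC2, Rest (0.39, adjusted p 0.493), a repressor of neuronal genes, Bdnf (0.37, adjusted p 0.471), a neurotrophin, and Neto2 (-0.33, adjusted p 0.116), an auxiliary protein of KCC2 and kainate receptors. Ckb did not overlap between the groups, at 331.8 to 498.8 CPM in controls and 291.4 to 318.1 CPM in mutants, and neither did Neto2, at 259.8 to 305.9 and 206.6 to 238.1 CPM. All other genes of this list overlapped, while 22.0% of all tested genes did not, so the separation of Ckb and Neto2 is not unusual. The count was 2 of 13 with DESeq2, 3 with limma-voom and 4 with the length offset. Ckb was called lower without control 4 (-0.52, adjusted p 0.00923), and Egr4 was called higher without control 1 (0.73, adjusted p 0.0167). ClC chloride channels and exchangers also gave 0 calls among 6 tested genes, with log2 fold changes from -0.20 (Clcn3) to 0.12 (Clcn6). Volume-regulated and calcium-activated anion channels gave 0 calls among 10 tested genes, with a median log2 fold change of -0.22 and 7 of 10 below 0.

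Bicarbonate transporters and carbonic anhydrases set the bicarbonate gradient that shares GABA channels with chloride. Of 10 tested genes, 3 were called lower and 1 higher, beside 4.78% and 4.63% of all tested genes. Their median log2 fold change was -0.21. Slc4a8, a sodium-driven chloride-bicarbonate exchanger of neurons, fell from 132.2, 140.1, 149.5 and 134.6 CPM in controls 1 to 4 to 71.3, 57.5 and 62.0 CPM in mutants 6, 7 and 8. Controls and mutants formed separate narrow ranges (log2 fold change -1.13, SE 0.11, edgeR adjusted p 8.84e-05). Car4, a carbonic anhydrase bound to the outer membrane face, fell from 71.5 ± 9.64 to 29.1 ± 5.22 CPM (-1.30, SE 0.15, adjusted p 0.000223). Slc4a4, a sodium-bicarbonate cotransporter abundant in astrocytes, fell from 214.9 ± 35.6 to 148.3 ± 12.9 CPM (-0.54, SE 0.14, adjusted p 0.0366), a call lost on leaving out control 2, control 3, mutant 6, mutant 7 or mutant 8 (-0.58 to -0.46, adjusted p 0.0842 to 0.188). Car12, another membrane carbonic anhydrase, rose from 2.71 ± 0.200 to 5.69 ± 0.717 CPM (1.07, SE 0.22, adjusted p 0.0103). Without mutant 6 or mutant 8 its adjusted p was 0.0548 and 0.0583. Slc4a3, a chloride-bicarbonate exchanger, was at 437.9 ± 39.6 and 329.1 ± 15.9 CPM and was not called (-0.41, adjusted p 0.0745). It was called lower in 6 of 16 other settings, among them DESeq2 (-0.41, adjusted p 0.0062), limma-voom (-0.47, adjusted p 0.00198) and the fit without control 4 (-0.47, adjusted p 0.0126). Slc4a10 and Car7, both known in neurons, had log2 fold changes of -0.05 and 0.02.

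The sodium pump maintains the sodium and potassium gradients that drive NKCC1 and the KCCs. Of 7 tested subunits, 1 was called lower and 2 higher, beside 4.78% and 4.63% of all tested genes. Atp1b3, a beta subunit, fell from 118.5 ± 8.76 to 65.7 ± 5.65 CPM (log2 fold change -0.85, SE 0.11, edgeR adjusted p 0.000514). Fxyd6, a small modulator of the pump, rose from 67.4 ± 11.1 to 153.8 ± 14.4 CPM (1.19, SE 0.13, adjusted p 0.00019). Atp1b2, a beta subunit also abundant in astrocytes, rose from 34.3 ± 6.75 to 49.96 ± 2.89 CPM (0.54, SE 0.15, adjusted p 0.0371). That last call was lost on leaving out any of the same 5 libraries (0.47 to 0.58, adjusted p 0.0879 to 0.163). The beta subunit Atp1b1 was not called (-0.28, adjusted p 0.314), and its groups did not overlap, as for 22.0% of all tested genes.

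**Figure D5:**
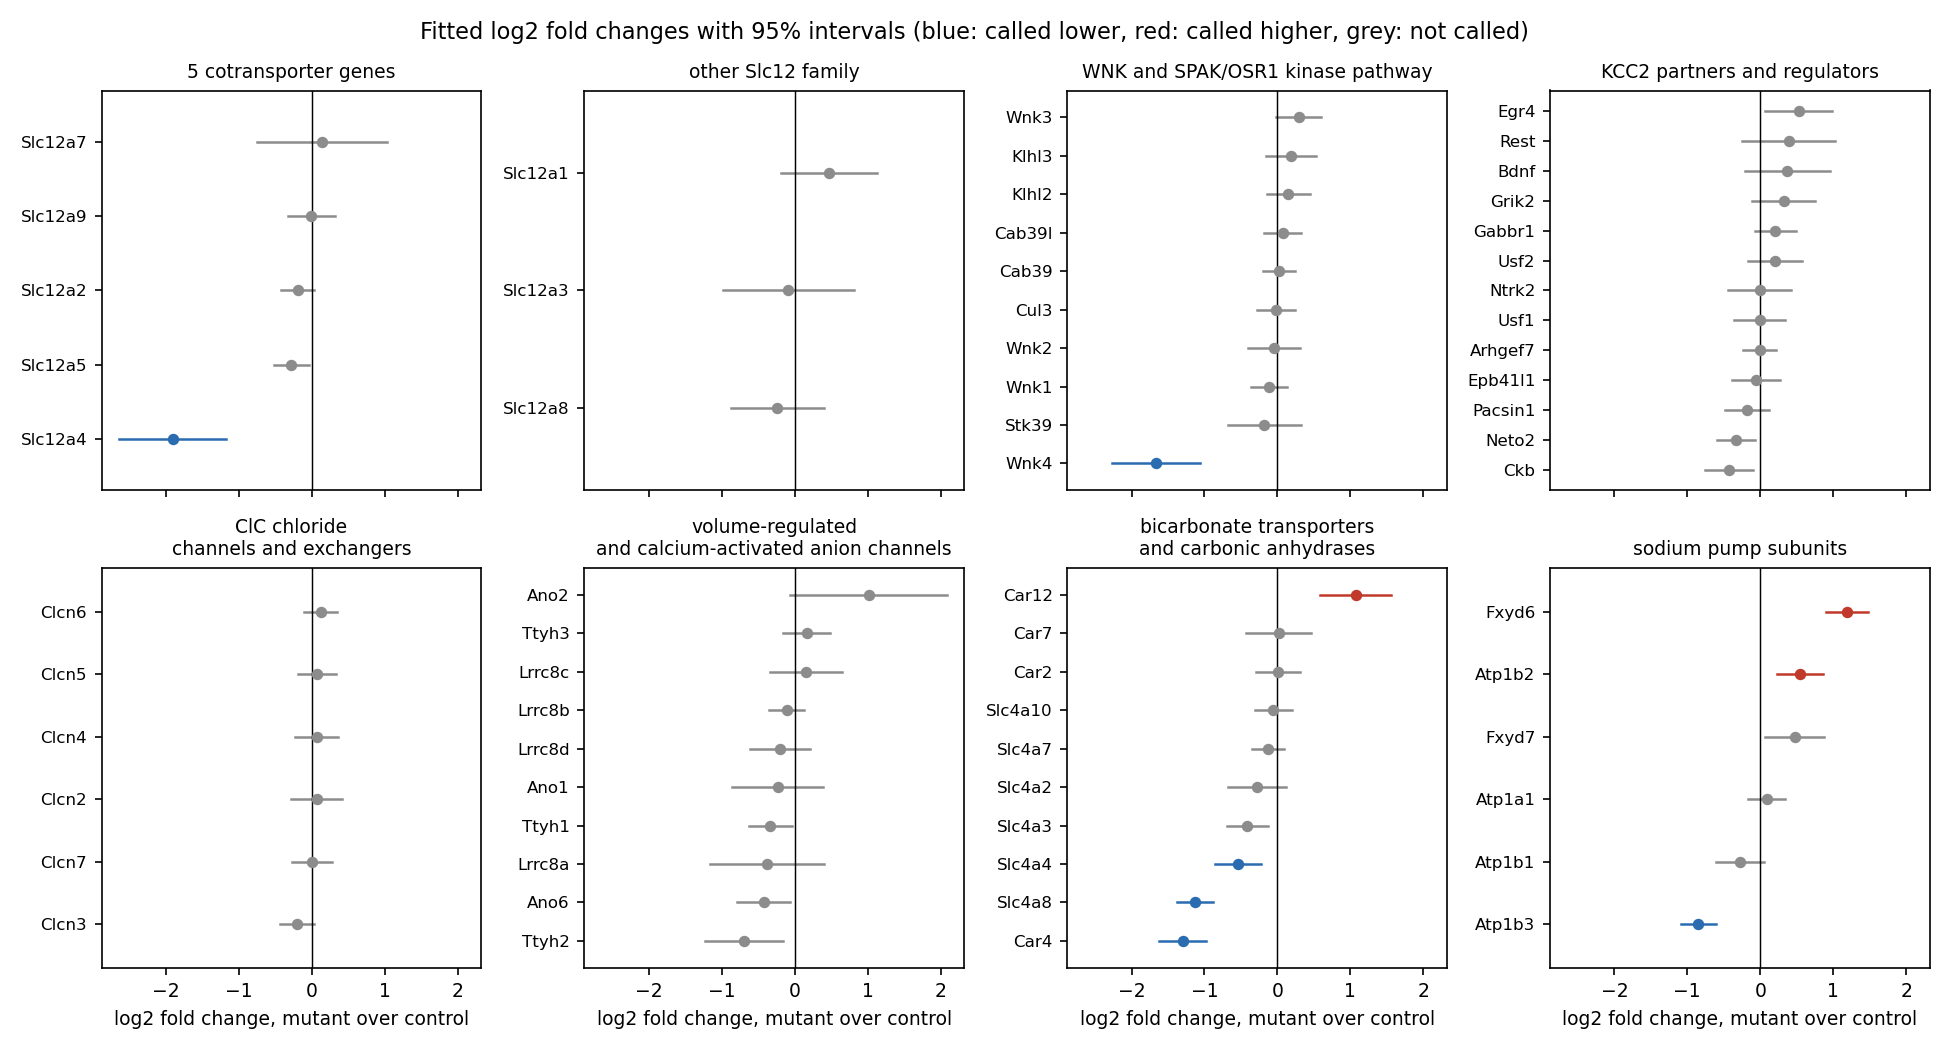
Fitted log2 fold change of mutant over control (x axis, 0 marked) with its 95% interval for the 5 cotransporter genes and all but 2 of the tested genes of 7 lists. Blue marks genes called lower, red genes called higher and grey genes not called in edgeR. Slc12a4 (-1.91), Wnk4 (-1.67), Car4 (-1.30) and Slc4a8 (-1.13) lie farthest to the left, and Fxyd6 (1.19) and Car12 (1.07) are the called genes farthest to the right.

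The genes whose level over the 7 libraries was most like that of Slc12a2 and Slc12a5 were sought among the 11796 tested genes whose mean reached 5 CPM. For Slc12a2 these were Nol8, a nucleolar protein gene (Pearson's r of log2 CPM 0.99), Kctd9 (0.99) and the antisense gene Gm48091 (0.98). For Slc12a5 they were Erbin, an adaptor of ErbB receptors (0.97), Cyp2s1, a cytochrome P450 (0.97), and Clstn3, a synaptic adhesion gene (0.97). With 7 libraries in 2 groups these values describe likeness and nothing more. Erbin (-0.38, edgeR adjusted p 0.0448), Cyp2s1 (-1.43, adjusted p 0.00587) and Gm48091 (-0.84, adjusted p 0.0265) were called lower, and Clstn3 (-0.16), Nol8 (-0.26) and Kctd9 (-0.21) were not. All were picked for likeness, over the same libraries, to genes that were lower in each mutant than in each control. Values below 0 therefore follow in part from the choice and are no separate evidence.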

How the data were processed

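Nuclear RNA of 8 deposited samples (4 controls, 4 mutants) was used. The authors deposited whole-number read counts per gene without normalization, as the values show. Per the submitters' processing notes Bowtie2 2.5.3 and the builds mm10 and GRCm38 were used; the counting program and its settings are not given in the sources used here. Per the labels' protocols libraries were SMART-Seq v4 and Nextera XT, a chemistry with no molecular identifiers, and PCR copies of 1 molecule count separately. All 55450 gene identifiers matched GENCODE M21, which gave symbols, positions and lengths. Totals were 10747169 to 13804734 counts.

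The 5 genes, the lists and the tests were chosen with earlier results of these data known. The design planned for 4 mutants, counting repeated tables once. Counts were fitted in R 4.3.3 with edgeR 4.0.16: filterByExpr (least count 10, least total 15), TMM, glmQLFit (robust) and glmQLFTest with group as the term, two-sided, Benjamini-Hochberg over all 16448 tested genes, with a call at 0.05 on the adjusted value. The SE is the log2 fold change over the square root of F. The fit was also run on counts simulated from the means, dispersions and library sizes of these data. Such counts hold no trend with gene length between libraries, so that run cannot show its effect. Correlations used log2 CPM (prior count 2). Alternatives used DESeq2 1.42.0, limma 3.58.1, other filters and scalings, a genomic length offset (spline, 4 degrees of freedom), a term for libraries without Y-linked reads, the repeated table kept, and each library left out. Named genes are the 5 members, Thra, every called gene of 7 pathway lists, and the 3 genes most like Slc12a2 and Slc12a5. Others (Egr4, Ckb, Neto2, Slc4a3 and further uncalled list or marker genes) were named after their values were seen. Single values of a few list genes are not reported here.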

Additional observations from a re-analysis of the deposited data

Results flagged for a closer look

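Of 16 values examined in the 4 controls (5 cotransporter levels, the Slc12a5 to Slc12a2 ratio, the share of Slc12a5 and 9 marker sums), 1 had a library far from the others. Control 4 had 173.9 CPM of Slc12a5, and the other controls had 191.9 to 194.2 CPM, a gap of 0.887 of the range, where Dixon's limit for 4 samples is 0.829. Chance flags about 1 in 20 groups. Control 4 is also a library without Y-linked reads. The trend with gene length does not mark control 4 alone. Spearman's rho was -0.368 for control 2 over control 4 and -0.458 for control 3 over control 4. It was -0.497 for control 1 over control 2 and -0.446 for control 1 over control 3. Without control 4 the log2 fold change of Slc12a5 was -0.32 (edgeR adjusted p 0.056). The 3 mutants are too few for this check.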

How the results depend on the processing

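Of the 5 cotransporter genes, 4 kept their side of the threshold in every alternative that gave a value, and Slc12a5 did not. With limma-voom and quality weights it came to -0.32 on the log2 scale, -0.31 with the genomic length offset and -0.31 without controls 1 and 4 (added after seeing the data), where it passed, against -0.28 in the reported fit. Slc12a4 and Slc12a7 have no value with the filter at a mean of 5 CPM. The sign of Slc12a7 and Slc12a9, not called anywhere, changed between settings. The count of called genes was 1549, and 3147 with limma-voom, 2708 with the length offset, 2530 with the repeated table kept and 2778 without controls 1 and 4; without single libraries it ran from 734 (without mutant 7) to 2347 (without control 4), with 766 without mutant 6, 816 without mutant 8 and 1016 without control 3. Calls among KCC2 partners rose from 0 to 2 with DESeq2, 3 with limma-voom, 4 with the length offset, 2 with the repeated table and 3 without controls 1 and 4, and to 0 to 1 without single libraries. Calls among volume-regulated and calcium-activated anion channels rose from 0 to 3, 2, 1 and 2 with limma-voom, the length offset, the repeated table and without controls 1 and 4, and to 0 to 1 without single libraries. Sodium pump calls rose from 3 to 5 with limma-voom, the length offset and without controls 1 and 4, and ran from 2 to 4 without single libraries; bicarbonate and carbonic anhydrase calls ran from 2 (without mutant 6 or mutant 8) to 5. Among 967 further values for list genes and Thra, 47 gained and 12 lost a call and 0 reversed. The cause was not tested. The Slc12a5 to Slc12a2 ratio was 3.47 in controls and 3.25 in mutants by longest transcript length, and 5.62 and 5.26 by genomic length. Depth is lowest for Slc12a7, with 7 to 21 reads per library, and for the other family members, with 10 to 78. No paired analysis was possible because the groups share no replicate numbers.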
